A study of Mus musculus with 12 samples.

Results

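The GATA transcription factors Gata2, Gata3, Gata4, Gata5 and Gata6 were followed across cultured mouse embryonic fibroblasts (MEFs) that carried a mutation of one form of Ezh2 or were wild type. The members were taken by gene symbol, and they are 5 of the 35602 symbols in the count table. They were chosen by gene family, with the differences of their counts between the 4 groups already known. Ezh2 encodes the enzyme of Polycomb repressive complex 2, and the series concerns forms of EZH2 that arise from alternative splice sites. The 12 libraries fall into 4 groups of 3: Ezh2a mutant, the wild-type littermates of that mutant, Ezh2b mutant, and the wild-type littermates of that second mutant. The labels name each mutant only as a mutation, without the sequence change, zygosity, strain or embryonic age, and all cells were grown in the same serum-containing medium. The labels do not say whether the libraries of a group came from separate embryos or cultures, so p-values measure only the spread between these libraries, which may be technical.

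GATA factors bind DNA words built around the letters GATA through a pair of zinc fingers, and they act with partner proteins such as the FOG proteins and the LIM-only and TAL complex. Gata1, Gata2 and Gata3 are best known from blood, and Gata4, Gata5 and Gata6 from heart, gut and gonad. Genes of such developmental regulators often carry CpG-rich promoters, and in many cell types they are marked by the H3K27 trimethylation that EZH2 places. Neither that mark nor EZH2 binding was measured in the values used here.

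In the RefSeq promoter table on GRCm38.p6, 3 of the 5 members were matched: Gata2, Gata3 and Gata5. The promoters of Gata2 and Gata3, the matched members with counts, are shown because their CG content is a feature the choice of members did not use. Each is the 250 bases before a transcription start, written 5′ to 3′ on the strand of the gene, with every CG dinucleotide in capitals. The first Gata2 start has chr6:88193641-88193890 on the plus strand, the second Gata2 start has chr6:88198414-88198663 on the plus strand, and Gata3 has chr2:9878601-9878850 on the minus strand.
Gata2 start 1: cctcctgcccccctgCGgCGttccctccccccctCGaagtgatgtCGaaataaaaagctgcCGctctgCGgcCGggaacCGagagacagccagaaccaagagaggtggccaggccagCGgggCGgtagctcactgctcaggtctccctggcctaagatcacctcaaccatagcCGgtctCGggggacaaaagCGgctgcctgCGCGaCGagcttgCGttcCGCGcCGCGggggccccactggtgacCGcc
Gata2 start 2: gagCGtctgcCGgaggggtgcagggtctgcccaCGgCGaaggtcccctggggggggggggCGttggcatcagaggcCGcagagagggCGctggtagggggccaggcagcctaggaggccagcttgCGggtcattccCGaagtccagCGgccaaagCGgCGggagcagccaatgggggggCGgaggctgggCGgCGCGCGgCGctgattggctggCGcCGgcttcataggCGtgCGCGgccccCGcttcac
Gata3 start 1: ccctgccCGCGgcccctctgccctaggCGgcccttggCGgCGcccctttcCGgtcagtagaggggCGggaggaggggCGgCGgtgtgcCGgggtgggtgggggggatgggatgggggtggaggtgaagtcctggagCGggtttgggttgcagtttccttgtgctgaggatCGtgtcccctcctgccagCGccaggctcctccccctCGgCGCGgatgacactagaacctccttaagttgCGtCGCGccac
In these 250 bases the first Gata2 start held 22 CG dinucleotides, the second 24 and Gata3 19, against a median of 6 over 32851 RefSeq promoters. Gata5, the other member in the promoter table, held 22. In the wider window that runs 50 bases past the start, 9.52% of all promoters had at least as many CG dinucleotides as the first Gata2 start, and 23.1% at least as many as Gata3.

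The same wider window was searched on both strands for GATA words: AGATAA, its form that ends in G (AGATAG), then TGATAA, and likewise its form that ends in G (TGATAG). Among the Gata2, Gata3 and Gata5 starts only Gata3 held one, TGATAG, beginning at position 37 after its start, and 29.8% of all promoters hold such a word. The E-box CANNTG, the word bound by TAL1 and related proteins, was found at Gata3, at Gata5 and at the second Gata2 start, and 72.3% of all promoters hold it. A match describes letters and is not evidence of binding.

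Library depth was 28811482 to 54070380 counts, and 15708 genes passed the filter on low counts. Levels are in CPM, the count of a gene scaled to a common library size, with library sizes scaled by TMM, a method that balances the bulk of the genes between libraries. Ezh2 itself had 30.3 ± 0.201 CPM in wild-type cells of the Ezh2a set (SD, n = 3) and 14.5 ± 0.553 CPM in the Ezh2a mutant, and it had 35.0 ± 1.02 and 35.1 ± 1.43 in the Ezh2b wild type and mutant. Gene counts do not separate the Ezh2 splice forms, so they do not check the labels of the Ezh2b mutant. Replicate 3 of the Ezh2b wild type stood apart from its group, with mean chi-square values per gene of 12.0 and 13.1 against the other 2 libraries, where the other within-group pairs reached at most 4.89. Fibroblast markers were abundant in each group, with a summed level of 55500 to 65300 CPM over the 12 listed genes. In bulk RNA, fewer cells of a type and less RNA per cell cannot be told apart.

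Of the 5 members, 4 passed the filter. Gata2, Gata3 and Gata6 reached the minimum of 0.314 CPM in 12 libraries and Gata4 in 9 libraries, which excluded those of the Ezh2b wild type. Gata5 was at 0 counts in all libraries. Because the members were listed with results of these data known, their fold changes are given with standard errors (SE) as descriptions and without p-values.

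Gata2 was lower in both mutants than in their wild types, with the lower level in the Ezh2a mutant. GATA2 maintains blood stem and progenitor cells and is also expressed in endothelium. The gene lies at chr6:88193891-88207032 on the plus strand of GRCm38 in the GENCODE M21 annotation. Gata2 was at 7.40, 7.49 and 6.88 CPM in the Ezh2a wild-type replicates 1 to 3, and at 1.61, 1.77 and 2.79 CPM in the Ezh2a mutant replicates. Each mutant library was below each wild-type library, and mutant replicate 3 was the highest of its group. In the second pair of groups Gata2 was at 7.97, 7.78 and 7.83 CPM in the Ezh2b wild type and at 4.58, 5.01 and 5.42 CPM in the Ezh2b mutant, again without overlap. The log2 fold change of Gata2 was -1.82 (SE 0.15) in the Ezh2a mutant and -0.65 (SE 0.13) in the Ezh2b mutant. The Ezh2b effect minus the Ezh2a effect was 1.17 (SE 0.20) on the log2 scale.

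Gata3 was lower in the Ezh2b mutant, while its levels overlapped in the Ezh2a pair. GATA3 directs T cell, mammary and inner ear development. The gene lies at chr2:9857078-9890034 on the minus strand. Gata3 was at 8.51, 9.74 and 8.14 CPM in the Ezh2b wild type and at 4.12, 4.25 and 3.30 CPM in the Ezh2b mutant. Each mutant library was below each wild-type library, a log2 fold change of -1.17 (SE 0.12). In the Ezh2a pair Gata3 was at 1.86, 1.55 and 1.68 CPM in the wild type and at 2.096, 1.671 and 1.889 CPM in the mutant, with overlapping groups and a log2 fold change of 0.15 (SE 0.16). The Ezh2b effect minus the Ezh2a effect was -1.32 (SE 0.20) on the log2 scale.

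Gata4 was lower in the Ezh2a mutant and higher in the Ezh2b mutant than in the respective wild types. GATA4 is needed for heart, gonad and foregut development and is expressed in mesothelium. The gene lies at chr14:63198922-63271692 on the minus strand. Raw counts of Gata4 were 62, 58 and 76 in the Ezh2a wild type and 19, 13 and 28 in the Ezh2a mutant. They were 0, 4 and 3 in the Ezh2b wild type and 12, 27 and 14 in the Ezh2b mutant. In both pairs the libraries of mutant and wild type did not overlap, but the Ezh2b wild-type level rests on a total of 7 counts. As levels, Gata4 had 1.94 ± 0.396 CPM in wild-type cells of the Ezh2a set (SD, n = 3), 0.616 ± 0.225 CPM in the Ezh2a mutant, 0.0642 ± 0.0693 CPM in the Ezh2b wild type and 0.487 ± 0.0903 CPM in the Ezh2b mutant. The fitted log2 fold change was -1.64 (SE 0.31) in the Ezh2a mutant and 2.95 (SE 0.55) in the Ezh2b mutant, and the difference of the effects was 4.59 (SE 0.62). From pooled counts the level in the Ezh2b mutant was 8.25 times that in its wild type, with a 95% interval of 3.74 to 21.5 that covers counting error only.

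Gata6 was higher in each Ezh2b mutant library than in each of its wild-type libraries, and the Ezh2a pair showed a smaller difference in the same direction. GATA6 acts in primitive endoderm, heart outflow tract and vascular smooth muscle. The gene lies at chr18:11052064-11085635 on the plus strand. Gata6 was at 3.37, 4.65 and 4.26 CPM in the Ezh2b wild type and at 8.88, 7.70 and 6.75 CPM in the Ezh2b mutant, a log2 fold change of 0.92 (SE 0.14). In the Ezh2a pair it was at 11.4, 8.36 and 11.2 CPM in the wild type and at 12.0, 13.1 and 12.0 CPM in the mutant. The mutant libraries lay just above the wild-type libraries, and the log2 fold change of 0.26 (SE 0.12) did not pass the threshold used over all genes. The Ezh2b effect minus the Ezh2a effect was 0.66 (SE 0.18) on the log2 scale.

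Gata5, which acts in endoderm and in heart valve formation, had no count in any library. With the limit that a count of 0 allows, 3 counts over a group's libraries, its level was at most 0.0261 to 0.0318 CPM in the 4 groups. Gata1, the red cell member of the family, was also at 0 counts in all libraries.

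**Figure D1:**
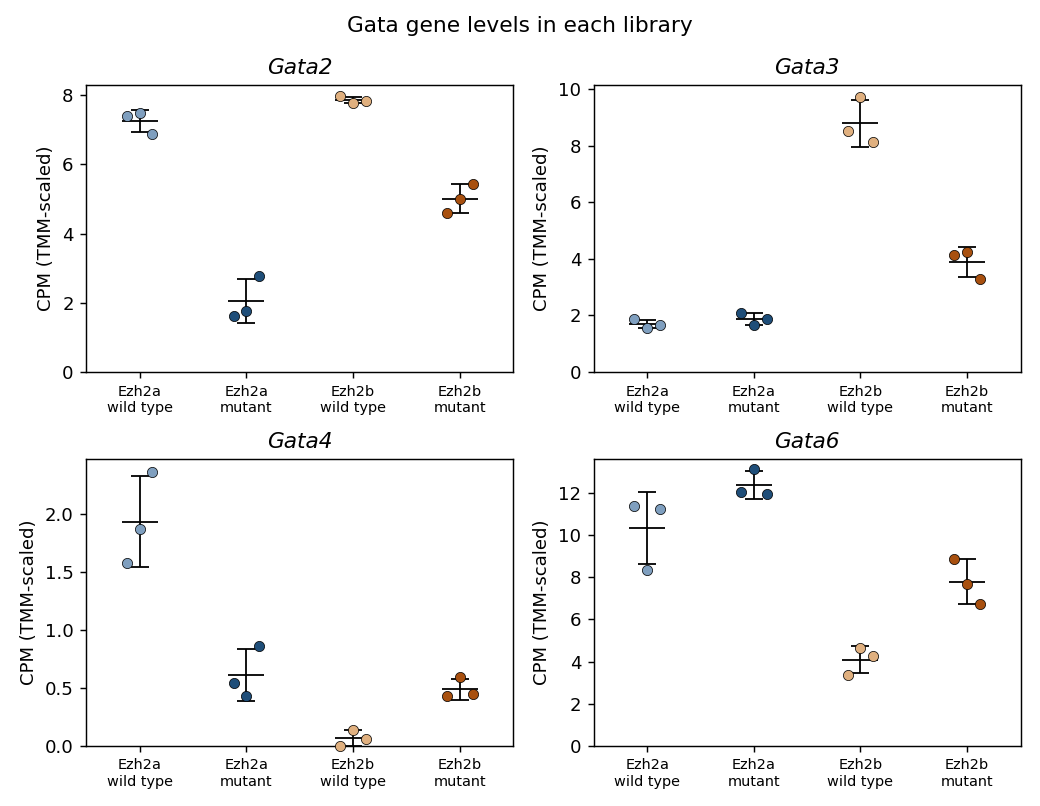
Level of each GATA member in CPM (vertical axes from 0) in the 12 libraries, with points for libraries and bars for the mean and SD of each group of 3. Gata5, at 0 in all libraries, is not drawn. Gata2 is lowest in the Ezh2a mutant, Gata3 is highest in the Ezh2b wild type, Gata4 is near 0 in the Ezh2b wild type and Gata6 is lowest there.

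Among the 4 tested members, 2 were past the threshold (edgeR quasi-likelihood test, Benjamini-Hochberg adjusted p under 0.05) in the Ezh2a comparison, both lower. Over all tested genes 19.8% were past it, 9.61% higher and 10.2% lower. Without TMM scaling, by library totals alone, the split of all genes in that comparison was 2061 higher and 1117 lower in place of 1509 and 1609. The groups did not overlap for 3 of the 4 members, against 37.6% of all genes. In the Ezh2b comparison all 4 tested members were past the threshold, 2 higher and 2 lower, against 26.1% of all genes, 14.0% higher and 12.1% lower. By library totals that split was 1910 higher and 2525 lower in place of 2200 and 1905. For all 4 members mutant and wild-type libraries did not overlap, against 37.2% of all genes. The difference between the effects was past the threshold for 4 of 4 members, 3 higher and 1 lower, against 26.5% of all genes, 14.7% higher and 11.9% lower, with a split of 1723 and 2787 by library totals in place of 2305 and 1863. Nothing is read from these counts, since the members were chosen with these contrasts known.

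**Figure D2:**
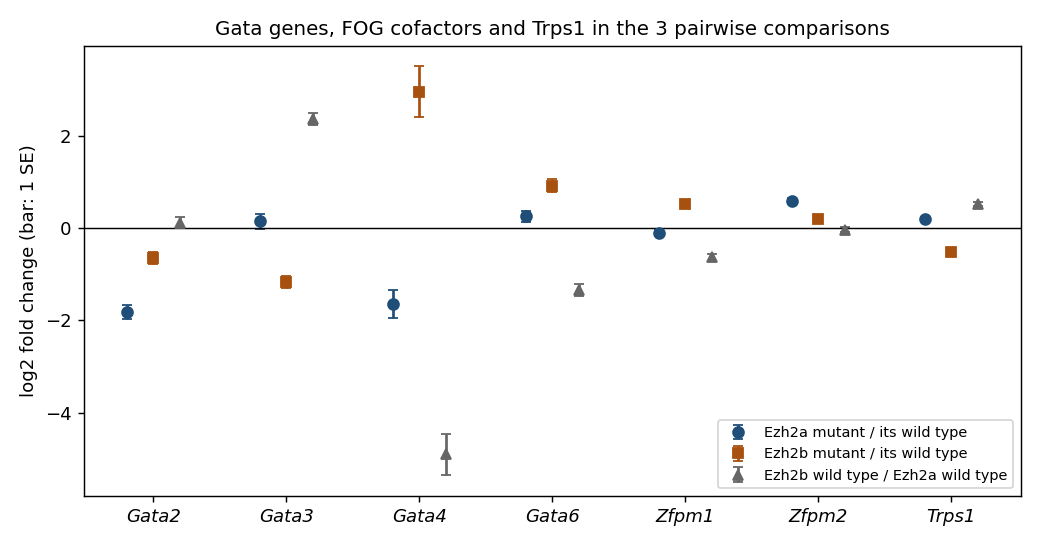
Log2 fold change (points, with bars of 1 SE) for each tested GATA member, the FOG genes Zfpm1 and Zfpm2 and Trps1 in the Ezh2a and Ezh2b comparisons and between the wild types. Gata2 is below 0 in both mutants, and Gata4 lies at -1.64 in the Ezh2a mutant and 2.95 in the Ezh2b mutant.

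The wild types of the 2 sets, which carry no Ezh2 mutation, also differed in GATA levels. Gata3 had 1.70 ± 0.158 CPM in wild-type cells of the Ezh2a set (SD, n = 3) and 8.80 ± 0.836 CPM in the Ezh2b wild type, a log2 difference of 2.36 (SE 0.14). Gata4 was lower in the Ezh2b wild type by a fitted log2 difference of -4.90 (SE 0.45), and the pooled count ratio of the Ezh2a wild type to it was 31.4, with a 95% counting interval of 15.0 to 79.2. Gata6 was also lower there, at 4.09 ± 0.653 CPM against 10.3 ± 1.71 CPM. Gata2 differed least, at 7.86 ± 0.0977 CPM against 7.25 ± 0.330 CPM, a log2 difference of 0.11 (SE 0.12). Past the threshold were 1 member higher and 2 lower, against 42.3% of all genes, 20.4% higher and 21.8% lower. For all 4 tested members the libraries did not overlap, against 48.9% of all genes, 23.4% higher and 25.4% lower. For Gata3, Gata4 and Gata6 the difference between the wild types was larger in size than either mutant difference, on the log2 scale. This contrast shares its libraries with both mutant comparisons, and litter, strain background and culture cannot be told apart in it.

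Levels were compared between genes per kilobase of merged exon length. The summed level of the members was 3.85 ± 0.273 CPM per kb in wild-type cells of the Ezh2a set (SD, n = 3) and 2.91 ± 0.122 in the Ezh2a mutant. It was 4.31 ± 0.282 CPM per kb in the Ezh2b wild type and 3.22 ± 0.209 in the Ezh2b mutant. The mutant libraries were below the wild-type libraries in both pairs, also when levels were scaled by library totals. Gata6 made up 41.0% of the summed level in the Ezh2a wild type and 65.4% in the Ezh2a mutant, while the share of Gata2 was 35.0% and 12.97%. In the Ezh2b wild type Gata3 held the largest share, 51.2%, and Gata6 held 14.6%. In the Ezh2b mutant Gata6 held 37.0%, Gata3 30.2% and Gata2 28.9%. The per-kilobase ranges of these 3 genes overlapped from neighbour to neighbour in the Ezh2b mutant, and did not overlap in the Ezh2b wild type. In the Ezh2a wild type Gata6 overlapped with Gata2, and Gata4 with Gata3. In the Ezh2a mutant Gata6 stood above the rest, Gata3 overlapped with Gata2, and Gata4 was lowest.

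**Figure D3:**
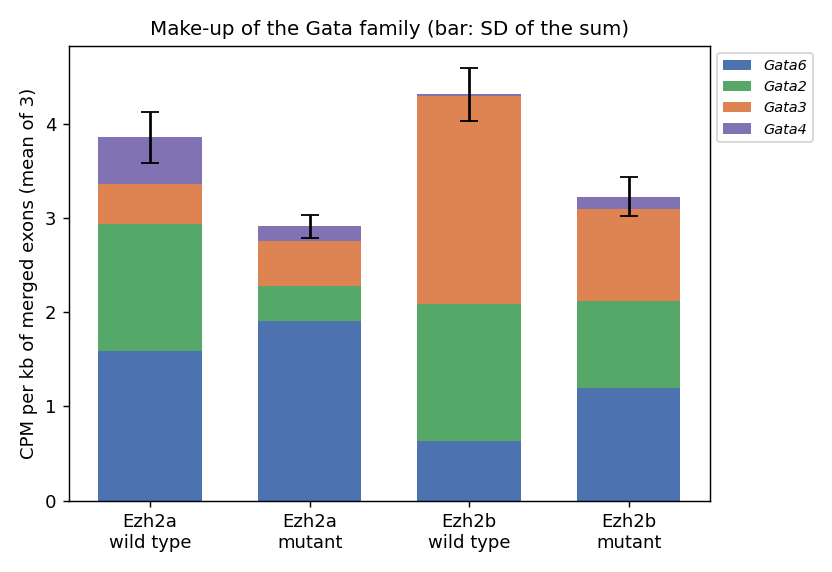
Summed level of the GATA members in CPM per kb of exon (vertical axis from 0) in each group, as means of 3 libraries stacked by member, with the SD of the sum. The Ezh2a mutant is mostly Gata6, at 65.4%, and the Ezh2b wild type is mostly Gata3, at 51.2%.

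Relatives and partners of the GATA factors were tested in the same fit. Of 5 tested relatives with a GATA-type zinc finger, Trps1 alone passed in each mutant. Among all tested genes 19.8% passed in the Ezh2a comparison and 26.1% in the Ezh2b comparison. Trps1 encodes a GATA-type repressor of skeletal and hair development. Trps1 went up from 70.1 to 80.7 CPM in the Ezh2a mutant, by 0.20 on the log2 scale (SE 0.04, adjusted p = 0.00177). In the Ezh2b mutant it fell from 100 to 70.3 CPM, by 0.51 (SE 0.04, adjusted p = 1.41e-08). The Trps1 effects differed between the mutants by -0.71 on the log2 scale (SE 0.06, adjusted p = 2.35e-08). Its wild types differed too, with the Ezh2b wild type higher by 0.52 (SE 0.04, adjusted p = 5.31e-09).

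Among 20 tested partners the Ezh2a mutant had 6 that rose and 2 that fell, and the Ezh2b mutant 8 and 4, with median log2 fold changes of 0.03 and 0.10. The median over all tested genes was -0.00 in the Ezh2a mutant and -0.01 in the Ezh2b mutant. Of all tested genes 19.8% and 26.1% were past the threshold. When only the groups compared were fitted, 4 partners in place of 2 fell in the Ezh2a mutant. Zfpm2, which encodes the FOG2 partner of GATA4, rose from 23.6 to 35.3 CPM in the Ezh2a mutant, by 0.58 on the log2 scale (SE 0.06, adjusted p = 1.05e-06). In the Ezh2b mutant Zfpm2 rose by 0.20 (SE 0.06, adjusted p = 0.0242), a call lost by library totals, with adjusted p = 0.0511, and when only the groups compared were fitted, with adjusted p = 0.0549. It was also lost without replicate 1 or 2 of the Ezh2b mutant or replicate 2 or 3 of its wild type, with adjusted p from 0.0596 to 0.113. Zfpm1, which encodes FOG1, rose from 11.8 to 16.8 CPM in the Ezh2b mutant (0.52, SE 0.07, adjusted p = 2.22e-05), and its log2 fold change in the Ezh2a mutant was -0.10 (adjusted p = 0.396). Both FOG genes differed between the mutant effects, Zfpm1 by 0.62 (adjusted p = 0.00014) and Zfpm2 by -0.39 (adjusted p = 0.00224).

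Members of the blood complex around TAL1 were among the partners that rose in the Ezh2b mutant. Tal1 rose by 2.30 on the log2 scale (SE 0.38, adjusted p = 1.08e-04), Lmo2 by 1.88 (SE 0.15, adjusted p = 1.12e-08) and Lyl1 by 1.498 (SE 0.19, adjusted p = 5.54e-06). Lmo1, a LIM-only gene, fell by 0.99 (SE 0.19, adjusted p = 5.86e-04). Macrophage markers rose in the same libraries: 10 of 10 were past the threshold, against 26.1% of all tested genes. Their summed level was 87.1 to 98.5 CPM in the Ezh2b wild type and 420 to 448 CPM in the mutant. The part of the macrophage markers in the rise of these partners was not tested. In the Ezh2a mutant Lyl1 rose by 0.66 (SE 0.12, adjusted p = 5.92e-04) and the limb and heart factor Tbx5 fell by 0.49 (SE 0.11, adjusted p = 0.00287). Hand2, another such factor, rose by 0.53 there (SE 0.14, adjusted p = 0.0122), and without mutant replicate 2 its adjusted p was 0.0688.

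Among 14 tested targets of GATA factors, the Ezh2a mutant had 2 that rose, 2 that fell and 10 that did not pass the threshold, with a median log2 fold change of -0.06. The Ezh2b mutant had 5 that rose and 2 that fell, with a median of 0.48. The shares of all tested genes past the threshold were 19.8% and 26.1%. Pgr, the progesterone receptor gene and a target of GATA2 in uterus, fell by 2.003 in the Ezh2a mutant (SE 0.13, adjusted p = 1.31e-09). In the Ezh2b mutant, where Gata2 was also lower, Pgr rose by 0.79 (SE 0.22, adjusted p = 0.0126), and this call was lost without mutant replicate 2 or wild-type replicate 1, with adjusted p of 0.092 and 0.0549. Between the wild types, whose Gata2 levels were close, Pgr was lower in the Ezh2b set by a log2 difference of -4.73 (SE 0.16, adjusted p = 1.37e-14). Litter, strain background and culture cannot be told apart in that contrast. The part of any GATA factor in the values of the listed targets was not tested. Kdr, a VEGF receptor gene of endothelium, fell in both mutants, by 0.95 (SE 0.08, adjusted p = 8.13e-08) and 1.11 (SE 0.08, adjusted p = 3.76e-09). Tek, an angiopoietin receptor gene, fell by 1.54 in the Ezh2b mutant (SE 0.23, adjusted p = 3.49e-05). In the Ezh2a mutant Tek rose by 0.80 (SE 0.23, adjusted p = 0.0183), a call lost when any of 4 single libraries was left out, with adjusted p from 0.0554 to 0.0781. Those libraries were replicates 2 and 3 of the mutant and 1 and 3 of the wild type, and the count of targets that rose was then 1. Dab2, an endocytic adaptor gene and a GATA6 target in endoderm, rose in the Ezh2a mutant by 0.28 (SE 0.04, adjusted p = 6.03e-05) and in the Ezh2b mutant by 0.78 (SE 0.04, adjusted p = 6.02e-11). Spi1, the myeloid factor gene, rose by 2.29 in the Ezh2b mutant (SE 0.20, adjusted p = 2.88e-08), and Vwf, of endothelium, rose by 1.36 (SE 0.27, adjusted p = 7.91e-04).

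Mesothelial cells express Gata4 and Gata6, and most of their markers changed in the direction of Gata4 in both mutants. Gata6 was instead higher in the Ezh2a mutant, by 0.26 (SE 0.12), where most of the markers fell. All 11 mesothelial markers were tested: 9 fell and Gpm6a rose in the Ezh2a mutant, and 10 rose and Krt19 fell in the Ezh2b mutant. The median log2 fold changes were -0.70 and 1.82. Over all tested genes 19.8% and 26.1% were past the threshold. The summed level was 122 to 130 CPM in the Ezh2a wild type and 68.9 to 76.0 CPM in the mutant, against 35.6 to 42.6 CPM in the Ezh2b wild type and 54.4 to 57.0 CPM in the mutant. The simple keratins Krt18 and Krt8 fell by 3.25 (SE 0.16) and 2.88 (SE 0.28) in the Ezh2a mutant, and in the Ezh2b mutant Upk3b rose by 2.33 (SE 0.12) and Wt1 by 2.39 (SE 0.26). No marker of the list was at 0 in any group. Between the wild types 10 of the 11 were lower in the Ezh2b set, as Gata4 and Gata6 were, against 21.8% of all tested genes. The direction was not particular to mesothelial markers. All 10 macrophage markers were also lower in the Ezh2b wild type and rose in the Ezh2b mutant, while in the Ezh2a mutant 1 rose and 1 fell. The part of either marker list in the Gata4 and Gata6 values was not tested.

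Endothelial cells express Gata2. Among 5 tested endothelial markers 3 rose and 1 fell with the Ezh2a mutation, and 2 rose and 3 fell with the Ezh2b mutation. Without Ezh2b mutant replicate 2, 1 rose with the Ezh2b mutation. Over all tested genes the shares past the threshold were 19.8% and 26.1%. The summed level was 49.6 to 52.3 CPM in the Ezh2a wild type and 64.9 to 68.7 CPM in the mutant. It was 63.9 to 70.7 CPM in the Ezh2b wild type and 49.5 to 52.6 CPM in the mutant. The sum was thus higher in the Ezh2a mutant and lower in the Ezh2b mutant, while Gata2 was lower in both. Erg held much of that sum, at 24.0 and 41.2 CPM in the Ezh2a wild type and mutant. It had 36.7 and 24.2 CPM in the Ezh2b wild type and mutant. Of the same list Kdr fell and Eng rose in both mutants. The part of these markers in the Gata2 values was not tested. Cldn5 was at 0 in all groups. Tie1 was at 0 in both wild types and Cdh5 in the Ezh2b wild type. Of the blood progenitor and mast cell markers, Mcpt4, Tpsb2, Fcer1a, Cma1 and Gfi1b were at 0 in all groups. Of the 3 of these markers that were tested, Cd34 rose and Ms4a2 fell in the Ezh2a mutant, and Ms4a2 rose and Cd34 fell in the Ezh2b mutant. The list summed to 15.4 to 16.0 CPM in the Ezh2a wild type and 17.8 to 18.5 CPM in its mutant, and to 17.1 to 18.8 CPM in the Ezh2b wild type and 12.2 to 12.7 CPM in its mutant. Cd34, which fibroblasts also express, is part of this sum, and its part in the Gata2 values was not tested.

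Cells that express Gata3 were looked for by lymphoid, skin and sympathetic markers. Cd3e, Cd3d, Cd3g and Cd8a were at 0 in all groups. Of 3 tested lymphoid markers, 2 rose in the Ezh2b mutant, where Gata3 was lower and 14.0% of all tested genes rose. These were the pan-leukocyte gene Ptprc, by 1.89 (SE 0.10), and Il7r, by 1.26 (SE 0.33). All 10 macrophage markers rose in the same libraries, and Ptprc is not particular to lymphoid cells. For the Ezh2a comparison edgeR and DESeq2 each called 0 of the 3 lymphoid markers, and 0 had an unadjusted p under 0.05. Over all tested genes 19.8% were past the threshold in the Ezh2a comparison and 26.1% in the Ezh2b comparison. The keratinocyte list summed to at most 3.09 CPM in any library, and of its 4 tested genes both tools called 0 in each mutant, with 1 at an unadjusted p under 0.05 in each. Th and Chga, of sympathetic cells, were at 0 in all groups. The 1 tested sympathetic marker, Ddc, rose by 1.33 in the Ezh2b mutant (SE 0.18, adjusted p = 9.41e-06), and its log2 fold change in the Ezh2a mutant was -0.13 (adjusted p = 0.604). The part of any of these cell types in the Gata3 values was not tested.

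Among 5 tested heart muscle markers Tnnt2 alone passed the threshold in each mutant. The median log2 fold changes of the tested markers were -0.09 and 0.52. Tnnt2 rose by 1.09 in the Ezh2a mutant (SE 0.13, adjusted p = 5e-06) and by 0.73 in the Ezh2b mutant (SE 0.14, adjusted p = 4.43e-04). Myl7 was at 0 in all groups. The endoderm list summed to at most 1.09 CPM in any library, and Sox17 and Ttr were at 0 in all groups. Of its 2 tested genes both tools called 0 in each mutant, with 1 at an unadjusted p under 0.05 in the Ezh2a mutant and 0 in the Ezh2b mutant. The 1 tested red cell marker was called by neither tool in either mutant, and it had an unadjusted p under 0.05 in the Ezh2a mutant. Of the 10 macrophage markers, 1 rose and 1 fell with the Ezh2a mutation, and 2 rose when replicate 1 of the Ezh2a mutant, replicate 2 of its wild type, or any library of the Ezh2b set except mutant replicate 3 was left out. By library totals 3 of them rose. Among 12 tested fibroblast markers the Ezh2a mutant had 5 that rose and 2 that fell, and the Ezh2b mutant 8 and 3. Their median log2 fold changes were small, at -0.03 and 0.17. The shares past the threshold over all tested genes were 19.8% and 26.1%.

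**Figure D4:**
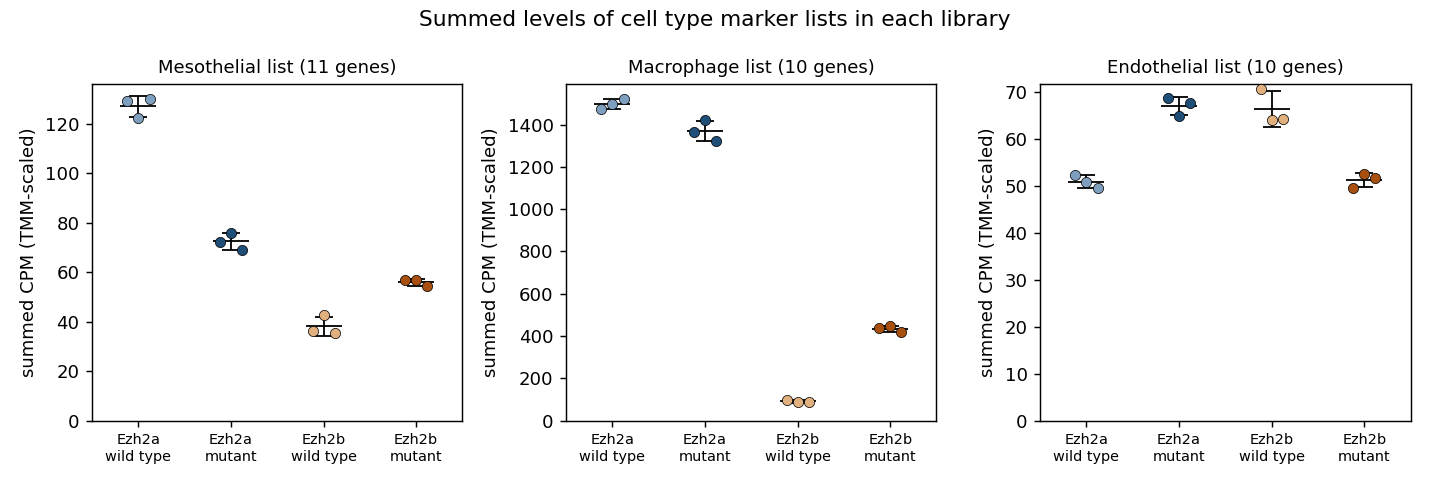
Summed level in CPM (vertical axes from 0) of the mesothelial, macrophage and endothelial marker lists in the 12 libraries, with bars for the mean and SD of each group of 3. The mesothelial sum is highest in the Ezh2a wild type, at 122 to 130 CPM, and the macrophage sum is lowest in the Ezh2b wild type, at 87.1 to 98.5 CPM.

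The nearest protein-coding gene with a row in the count table was looked up on each side of each tested member. Dnajb8, 15235 bases from Gata2, and Blk, 101143 bases from Gata4, were at 0 counts in all libraries and were not tested. Rpn1, 88586 bases from Gata2 on its other side, had log2 fold changes of -0.05 and -0.07 in the Ezh2a and Ezh2b mutants, neither past the threshold. Neil2, which lies 5065 bases from Gata4, had -0.15 and 0.44, and Taf3, 24517 bases from Gata3, had 0.10 and -0.09. Mib1, 233359 bases from Gata6, had 0.05 and -0.05. Neil2, Taf3 and Mib1 did not pass the threshold in either mutant. Celf2, as far as 2347514 bases from Gata3 on its other side, rose by 0.19 in the Ezh2a mutant (adjusted p = 0.0042). Rbbp8, 547640 bases from Gata6 on its other side, rose by 0.23 in the Ezh2a mutant (adjusted p = 0.00499). In the Ezh2b mutant Rbbp8 fell by 0.16 (adjusted p = 0.0373). That call was lost with DESeq2, with no filter and with only the groups compared. It was also lost when any of 7 single libraries was left out, with adjusted p from 0.0531 to 0.154. Those libraries were replicates 1 and 3 of the Ezh2a mutant, all 3 of the Ezh2b mutant and replicates 2 and 3 of the Ezh2b wild type. Between the wild types, Neil2 was lower in the Ezh2b set (-0.89, adjusted p = 0.00226), and Rbbp8 higher (0.25, adjusted p = 0.000892). Mib1 was higher (0.13, adjusted p = 0.00793) and Celf2 lower (-0.13, adjusted p = 0.0248), calls lost when certain single libraries were left out. Rpn1 and Taf3 did not pass there.

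Few counts were credited to antisense or overlapping genes at the members. Gm13256, on the strand opposite Gata3, and 1010001N08Rik, on the strand opposite Gata6, had no row under these symbols in the count table. The annotation used lists 1010001N08Rik and not Gata6os over Gata6, so both symbols may name the same gene, which was not checked. The protocol names no step that marks the strand, so reads of a gene and of an antisense partner cannot be told apart where they overlap. Gata6os, antisense to Gata6, had 40 counts in the Ezh2a mutant, 40 in the Ezh2a wild type, 35 in the Ezh2b mutant and 22 in the Ezh2b wild type, each summed over 3 libraries. Gata5os was at 0 in all libraries. 4930412O13Rik, which overlaps Gata3 on the opposite strand, had summed counts of 11 and 0 in the Ezh2a mutant and wild type and 2 and 18 in the Ezh2b mutant and wild type. 9230102O04Rik, which overlaps Gata3 on the same strand, had 2 counts in all, in the Ezh2b wild type.

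The genes most like each member were found by the root mean square difference of log2 CPM, centred on each gene's mean, over the 12 libraries and among 11851 genes. For Gata3 these were Car12, a carbonic anhydrase gene, at 0.196, then Nptx2 at 0.255 and Lrrc7 at 0.262. For Gata6 they were Sh3tc2 at 0.151, St6gal1, a sialyltransferase gene, at 0.179 and Dab2 at 0.186. Gata2 was less closely matched, by Tmem88 at 0.365, Grin3a at 0.385 and Lipg at 0.395. Gata4, with the lowest counts, was nearest to Slamf9 at 0.509 and Aoah at 0.542, both known from myeloid cells, and to the mesothelial gene Upk1b at 0.553. Aoah rose by 2.19 in the Ezh2b mutant (SE 0.27, adjusted p = 3.82e-06), as the macrophage markers did. The 12 libraries share 4 groups, so the likeness mostly describes group means.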

How the data were processed

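RNA was measured by sequencing of poly-A selected libraries from 12 MEF samples in 4 labelled groups of 3. The authors deposited raw counts, 1 row per symbol. The submitters' processing notes name edgeR 4.2.1, StringTie 2.1.5, HISAT2 2.1.0 and fastp 0.21.0 with the GRCm38 build; which program counted the reads, on which annotation and with which strand setting, is not given in the sources used here. Counts may include both mates of a read pair, so counts divided by 2 were tried.

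Library sizes were TMM-scaled and genes with low counts were removed with edgeR's filterByExpr (minimum count 10). All 12 libraries were fitted together with edgeR 4.0.16 (R 4.3.3) by the quasi-likelihood test, 1 mean per group, with Benjamini-Hochberg adjustment over 15708 genes and a threshold of 0.05. The steps were tested on simulated data in which only the Ezh2a mutant differed and all genes had the same spread. That test does not cover genes as low as Gata4 in the Ezh2b wild type, the difference between the effects or the wild-type comparison. Each mutant was compared with its littermates, the 2 effects with each other, and the wild types with each other. Positions and exon lengths come from GENCODE M21, matched by symbol. Intervals and floors cover counting error only.

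The members and the 14 gene lists (relatives, partners and targets of GATA factors, and markers of 11 cell types) were chosen with earlier results of these data known. Named in the text are all members, Ezh2, Gata1, Trps1, Zfpm1, Zfpm2, neighbours, at most 4 genes per list with the largest change past the threshold and an average log2 CPM not under 0, and the 3 genes most like each member among those whose average log2 CPM was not under 1. List genes at 0 counts, and Il7r, Gpm6a, Krt19 and Ms4a2, and the Ezh2b values of Pgr and Dab2, were named after their values were seen. Some listed genes are not reported here. Alternatives were DESeq2 1.42.0, library totals, other filters, a fit of only the groups compared, a replicate block and leaving out each library.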

Additional observations from a re-analysis of the deposited data

Results flagged for a closer look

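Only 7 genes were looked at here: the tested members, Trps1, Zfpm1 and Zfpm2. For all 7 the Ezh2b effect differed from the Ezh2a effect by the interaction contrast of the edgeR quasi-likelihood fit. Over all tested genes 26.5% were past the same threshold. For the members these differences are descriptions, since the members were chosen with the contrasts known: 1.17 (SE 0.20) for Gata2, -1.32 (SE 0.20) for Gata3, 4.59 (SE 0.62) for Gata4 and 0.66 (SE 0.18) for Gata6, all on the log2 scale. Among relatives and partners the difference was -0.71 (SE 0.06, adjusted p = 2.35e-08) for Trps1, 0.62 (SE 0.10, adjusted p = 0.00014) for Zfpm1 and -0.39 (SE 0.09, adjusted p = 0.00224) for Zfpm2. Each mutant effect is measured against its own wild type, and the wild types themselves differed in Gata3, Gata4 and Gata6. They also differed in Trps1, higher in the Ezh2b set by 0.52 (SE 0.04, adjusted p = 5.31e-09). Zfpm1 was lower in that set, with a log2 difference of -0.63 (SE 0.07, adjusted p = 1.05e-06). Zfpm2 did not pass the threshold between the wild types (adjusted p = 0.719).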

How the results depend on the processing

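Each tested member kept its direction and its side of the threshold in every comparison under every alternative run. Leaving out each library in turn gave log2 fold changes of -2.10 to -1.66 for Gata2 and -1.96 to -1.45 for Gata4 in the Ezh2a mutant, and of -1.24 to -1.06 for Gata3, 2.51 to 3.72 for Gata4 and 0.81 to 1.01 for Gata6 in the Ezh2b mutant. The replicate numbers do not pair the samples: correlations of same-numbered deviations were -0.01 to 0.02 in the Ezh2a pair and -0.02 to 0.00 in the Ezh2b pair. With the replicate block, 3081 genes were called in the Ezh2a comparison against 3118 without it, and 4065 against 4105 in the Ezh2b comparison. Leaving out each library gave 2296 to 3643 and 3405 to 3992 calls. Calls of single listed, neighbouring or most-like genes were lost in 64 combinations of a gene, a comparison and an alternative, and gained in 9. With the counts of list genes included, 4250 results stayed the same and 27 list counts moved past the set margin. The cause was not tested. Depth limits Gata4 in the Ezh2b wild type, at 7 counts, and Gata5, at 0.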
